A study of Mus musculus with 6 samples.

Results

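The Z-disc, titin and nebulin genes are 9 mouse genes that encode the giant filaments of the sarcomere and the proteins that anchor them, namely *Ttn*, *Neb*, *Tcap*, *Actn2*, *Actn3*, *Myoz1*, *Myoz2*, *Ldb3* and *Myot*. They were taken by name from the 55421 genes of the count table, in a choice made with earlier results of these data known. RNA-seq of total RNA had been performed on C2C12 cells, an established line of mouse myoblasts that fuse into myotubes in low-serum medium, at day 4 of differentiation. The normal group (C2C12 GFP-CUG5) was stably transfected with a GFP plasmid that carries 5 CTG repeats, and the DM1 group (C2C12 GFP-CUG200), a cell model of myotonic dystrophy type 1 (DM1), with the same kind of plasmid carrying 200 CTG repeats. Both groups went through G418 selection, so the groups differ in the repeat length and also in the selected cell population that carries it. Each group had 3 libraries. The study calls them biological replicates. The labels do not say whether they came from separate cultures, so the p-values below measure the spread between these libraries, which may be partly technical. The GFP transcripts were not analysed here, and the group labels were not checked against them.

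The Z-disc is the border of the sarcomere, where actin filaments of neighboring sarcomeres are crosslinked by α-actinin. Titin is a molecular spring that reaches from the Z-disc to the M-band, and nebulin runs along the actin filament and takes part in setting its length. Telethonin (*Tcap*) caps the Z-disc end of titin, while the myozenins, LDB3 (also called Cypher or ZASP) and myotilin bind α-actinin and hold other Z-disc proteins in place. Myozenins also bind calcineurin, the phosphatase that activates NFAT transcription factors. Myoblasts switch these genes on as they differentiate, and *TTN* and *LDB3* transcripts are among those known to be misspliced in muscle of DM1 patients.

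The libraries held 61707889 to 80957325 counts, and their TMM factors (edgeR's correction of library size) lay between 0.940 and 1.05. A deposited count stands for 75 aligned bases, and the commonest amount among low genes was 300 bases, or 4 counts, so that counts are not independent fragments. Levels are given as CPM, a gene's counts relative to the library's total, with the total scaled by TMM. All 9 members passed the filter on low counts, which 19005 genes passed in all.

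Of the 9 members, 8 were downregulated in the DM1 group at an adjusted p under 0.05 in edgeR's quasi-likelihood test, while 8.73% of all tested genes were called lower and 7.13% higher. No member was upregulated (0 also at an unadjusted p under 0.05, and 0 by DESeq2). The count was 5 when normal replicate 3 was left out and 6 to 8 when any other library was. The median log2 fold change of the members was -0.68, against 0.015 over all tested genes. *Tcap* and *Actn2* also passed the cutoff of an absolute log2 fold change over 1, so 2 of 9 members were past both cutoffs, where 0.816% of tested genes were past both as lower and 1.36% as higher. Every DM1 library was below every normal library for the same 8 members, a separation that 19.3% of tested genes showed in this direction and 17.9% in the other. Tested against an absolute log2 fold change of 1 rather than 0 (edgeR's glmTreat), 0 members were called, where that test called 1 gene lower and 3 higher in all. *Myot* was the exception to the calls and to the separation. Together the 9 genes took 0.630%, 0.579% and 0.633% of all counts in normal replicates 1 to 3, and 0.273%, 0.309% and 0.437% in DM1 replicates 1 to 3. DM1 replicate 3 was the highest library of its group for 6 of the members, and DM1 replicate 1 the lowest for 7.

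In a bulk culture, fewer myotubes and less RNA of these genes per myotube cannot be told apart. A list of 15 genes of differentiated muscle, such as *Myog*, *Ckm* and *Acta1*, was detected in full, and most of it was lower in the DM1 group, as the members were. Their summed level was 13155 to 14305 CPM in the normal group and 8738 to 9580 CPM in the DM1 group, and 10 of the 15 were called lower and 0 higher (0 higher also at an unadjusted p under 0.05). Over all tested genes 8.73% were called lower and 7.13% higher, which also applies to the marker lists that follow. Of 6 genes of undifferentiated myoblasts, 3 were lower (*Myod1*, *Heyl* and *Cdh15*) and 0 higher (0 higher at an unadjusted p under 0.05). The list summed to 430.4 to 473 CPM and 246 to 284 CPM, most of it *Cdh15*, at means of 279 and 144 CPM. *Pax7*, *Myf5* and *Spry1* were not called (log2 fold changes -0.14, -0.26 and -0.32), and *Spry1* ran from 0.131 to 13.8 CPM within the normal group. Of 6 genes of fibroblasts, 3 were higher among the 4 tested (*Dpt*, *Lum* and *Col15a1*), with sums of 74.1 to 84.5 CPM and 129 to 172 CPM, while *Tcf21* was at 0 in every library. The 6 genes of dividing cells gave no call at an adjusted or unadjusted p under 0.05, with sums of 787 to 797 CPM and 765 to 954 CPM. Of 4 endothelial genes *Tek* was the 1 tested and was lower, with sums of 8.45 to 10.1 CPM and 3.86 to 5.72 CPM. Of 4 adipocyte genes, *Adipoq*, *Cidec* and *Lep* were at 0 in every library and none was tested. Of 5 genes of cardiac muscle, *Myl7* and *Hcn4* were at 0 in every library, while *Nppb* and *Tnni3* were tested and not called (adjusted p = 0.206 and 0.408 by edgeR), and the list summed to 2.72 to 4.67 CPM and 3.55 to 6.05 CPM. Of 4 genes of immune cells, *Ptprc* and *Cd3e* were at 0 in every library, while *Cd68* was tested and not called (adjusted p = 0.844 by edgeR), with sums of 2.83 to 3.84 CPM and 3.15 to 4.39 CPM. The part that the amount of differentiated muscle plays in the members' changes was not tested, but the members are given on a scale set by the muscle genes further on.

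**Figure D1:**
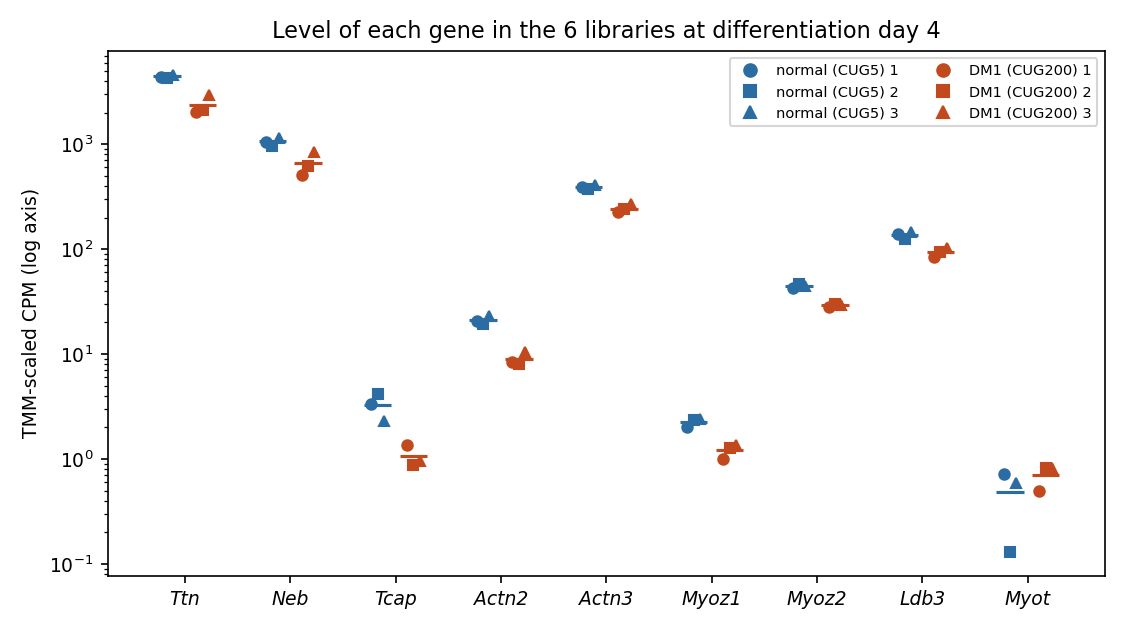
Level of each gene in TMM-scaled CPM on a log axis, with 1 point for each of the 3 normal (blue) and 3 DM1 (orange) libraries, a symbol for each replicate number and a bar at each group mean. For every gene except *Myot* the 3 DM1 libraries lie below the 3 normal libraries, and *Ttn* is the member with the most counts.

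Promoter sequence was found in the RefSeq table (GRCm38.p6) for 4 of the 9 members, each of them downregulated, and it is printed to show what lies upstream of genes that fell together. The stretches are the 250 bases before the annotated start, 5′ to 3′ on the minus strand. Capitals mark matches, on either strand, to motifs bound by factors that drive muscle genes, namely the MEF2 motif, the CArG box of serum response factor, and the E-boxes CAGCTG and CAGGTG bound by MyoD and myogenin. No searched motif overlapped another among the matches shown.
*Ttn*, chr2:76982548-76982797: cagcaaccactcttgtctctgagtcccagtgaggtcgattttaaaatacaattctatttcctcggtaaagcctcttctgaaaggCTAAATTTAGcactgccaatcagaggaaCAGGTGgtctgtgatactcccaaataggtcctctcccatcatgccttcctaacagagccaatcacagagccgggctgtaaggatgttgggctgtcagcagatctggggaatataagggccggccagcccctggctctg
*Myoz2*, chr3:123034988-123035237: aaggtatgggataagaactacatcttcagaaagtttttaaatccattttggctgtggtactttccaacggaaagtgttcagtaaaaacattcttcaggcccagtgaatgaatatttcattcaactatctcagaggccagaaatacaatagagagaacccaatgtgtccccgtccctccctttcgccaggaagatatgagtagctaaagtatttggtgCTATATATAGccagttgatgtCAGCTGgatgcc
*Ldb3*, chr14:34588682-34588931: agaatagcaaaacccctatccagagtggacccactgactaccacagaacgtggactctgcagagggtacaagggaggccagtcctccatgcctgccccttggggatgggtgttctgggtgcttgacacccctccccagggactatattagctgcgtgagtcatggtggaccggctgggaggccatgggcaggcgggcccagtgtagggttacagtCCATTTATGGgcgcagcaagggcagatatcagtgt
*Actn2*, chr13:12340733-12340982: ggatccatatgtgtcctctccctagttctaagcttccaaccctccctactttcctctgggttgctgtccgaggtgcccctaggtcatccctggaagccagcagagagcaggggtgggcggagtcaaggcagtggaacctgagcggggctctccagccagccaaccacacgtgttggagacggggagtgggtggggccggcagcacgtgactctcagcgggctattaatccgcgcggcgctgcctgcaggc
The *Ttn* stretch holds a MEF2 motif 166 to 157 bases before the start and CAGGTG 138 to 133 bases before it. The *Myoz2* stretch holds a MEF2 motif 33 to 24 bases and CAGCTG 12 to 7 bases before the start. The *Ldb3* stretch holds a CArG box 35 to 26 bases before the start, and the same box lies 109 to 100 bases before a downstream annotated start. The *Actn2* stretch holds none of these letters. Over 32851 mouse promoter stretches of the same length, 2.92% held the MEF2 motif, 1.47% the CArG box, 13% CAGCTG and 17.2% CAGGTG. A match describes the sequence and says nothing about binding in these cells.

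*Ttn*, which encodes titin, the spring of the sarcomere, was the member with by far the most counts, with 68.1% to 73.5% of the counts of all 9. The gene (ENSMUSG00000051747) spans chromosome 2 from 76703980 to 76982547 on the minus strand in GRCm38, with 25 annotated transcripts. Its level was 4408, 4277 and 4604 CPM in normal replicates 1 to 3 and 2046, 2124 and 2914 CPM in DM1 replicates 1 to 3. The groups did not overlap, and DM1 replicate 3 was nearer to the normal libraries than the other two. The mean went from 4429.5 ± 164 to 2361 ± 480.0 CPM (mean ± SD, n = 3 each), and the log2 fold change was -0.91 ± 0.138 (SE, 95% confidence interval -1.22 to -0.59, edgeR adjusted p = 0.00517). Leaving out 1 library at a time gave -1.09 to -0.80, and each of these fits kept the call.

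*Neb*, which encodes nebulin of the thin filament, lies on the same chromosome (ENSMUSG00000026950, 52136647 to 52378474, minus strand, 13 transcripts). Its level was 1059, 969.5 and 1154 CPM in the normal libraries and 508, 622 and 850.0 CPM in the DM1 libraries. Normal replicate 3 was the highest and DM1 replicate 1 the lowest, and the groups were separated by a smaller gap than those of *Ttn*, with the lowest normal library at 1.14 times the highest DM1 library. The log2 fold change was -0.68 ± 0.177 (SE, edgeR adjusted p = 0.0357). The call was lost when any of the 3 normal libraries or DM1 replicate 1 or 2 was left out (adjusted p = 0.0562 to 0.125 by edgeR) and with library totals alone in place of TMM (adjusted p = 0.0676), while the log2 fold change stayed between -0.91 and -0.51 in the fits without 1 library.

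*Tcap*, which encodes the titin cap telethonin, showed the largest fold change among the members. It is a short gene with 1 annotated transcript (ENSMUSG00000007877, chromosome 11, 98383811 to 98384953, plus strand) and low counts, which were 283, 254 and 162 for the normal group and 102, 63 and 63 for the DM1 group. In CPM this is 3.37, 4.14 and 2.32 against 1.37, 0.884 and 0.948. The groups did not overlap, although normal replicate 3 was the lowest normal library here, unlike for *Ttn* and *Neb*. The mean level went from 3.27 ± 0.912 to 1.07 ± 0.265 CPM (mean ± SD, n = 3 each), or 32.6% of normal, and the log2 fold change was -1.61 ± 0.281 (SE, edgeR adjusted p = 0.00830). The call was kept whichever library was left out, with log2 fold changes from -1.82 to -1.41.

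The sarcomeric α-actinins crosslink actin at the Z-disc, *Actn2* in all striated muscle and *Actn3* in fast fibers. *Actn2* (ENSMUSG00000052374, chromosome 13, 12269426 to 12340760, minus strand) was at 20.6, 19.2 and 23.0 CPM in the normal libraries and 8.33, 8.10 and 10.5 CPM in the DM1 libraries. The libraries of each group lay close together, and the DM1 mean was 43.0% of the normal mean. Its log2 fold change was -1.22 ± 0.139 (SE, 95% confidence interval -1.54 to -0.90, edgeR adjusted p = 0.00211). *Actn3* (ENSMUSG00000006457, chromosome 19, 4861216 to 4877909, minus strand) was at 389, 375 and 411 CPM and at 224, 239 and 267 CPM. These groups did not overlap either, and the DM1 mean was 62.2% of the normal mean. The log2 fold change of *Actn3* was -0.68 ± 0.0930 (SE, 95% confidence interval -0.90 to -0.47, edgeR adjusted p = 0.00333).

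The myozenins tether calcineurin to α-actinin, *Myoz1* mainly in fast and *Myoz2* in slow and cardiac muscle. *Myoz1* (ENSMUSG00000068697, chromosome 14, 20649107 to 20656540, minus strand) was low, with 170, 143 and 168 counts in the normal and 74, 91 and 90 in the DM1 libraries. Its level was 2.02, 2.33 and 2.40 CPM against 0.995, 1.28 and 1.35 CPM, with no overlap. The log2 fold change was -0.90 ± 0.218 (SE, edgeR adjusted p = 0.0267), and the call was lost when any of the 3 normal libraries or DM1 replicate 1 or 2 was left out (adjusted p = 0.0602 to 0.106). *Myoz2* (ENSMUSG00000028116, chromosome 3, 123006206 to 123035015, minus strand) was at 42.3, 46.8 and 44.7 CPM in the normal libraries and 28.0, 29.9 and 29.4 CPM in the DM1 libraries. Its DM1 libraries had the smallest spread of the members relative to their mean, at 29.1 ± 0.966 CPM (SD, n = 3) against 44.6 ± 2.24 CPM (SD, n = 3). Its log2 fold change was -0.62 ± 0.0839 (SE, edgeR adjusted p = 0.00338), and the call was kept whichever library was left out.

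*Ldb3* encodes a PDZ and LIM domain protein of the Z-disc (ENSMUSG00000021798, chromosome 14, 34526603 to 34588682, minus strand, 8 transcripts). Its level was 139, 125 and 144 CPM in the normal libraries and 84.8, 94.4 and 102 CPM in the DM1 libraries. The groups did not overlap, and this was the smallest change among the 8 members called. The log2 fold change was -0.53 ± 0.0984 (SE, edgeR adjusted p = 0.0101), and the call was lost without normal replicate 3 (adjusted p = 0.0601).

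*Myot* encodes myotilin, which binds α-actinin and filamin C. The gene (ENSMUSG00000024471, chromosome 18, 44334074 to 44355724, plus strand) had the fewest counts of the members, with 61, 8 and 41 counts in the normal and 37, 58 and 54 in the DM1 libraries. In CPM this is 0.726, 0.130 and 0.587 against 0.498, 0.814 and 0.812, and 3 counts correspond to 0.0357 to 0.0489 CPM in these libraries. The groups overlapped, and normal replicate 2 stood below all other libraries. The log2 fold change of 0.54 ± 0.559 (SE, 95% confidence interval -0.73 to 1.81, edgeR adjusted p = 0.574) leaves changes of either sign within its interval, so that a fall of the size seen for *Ldb3* or *Myoz2* was not detectable with these libraries. The log2 fold change was 0.10 without normal replicate 2 and 0.96 without normal replicate 1.

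**Figure D2:**
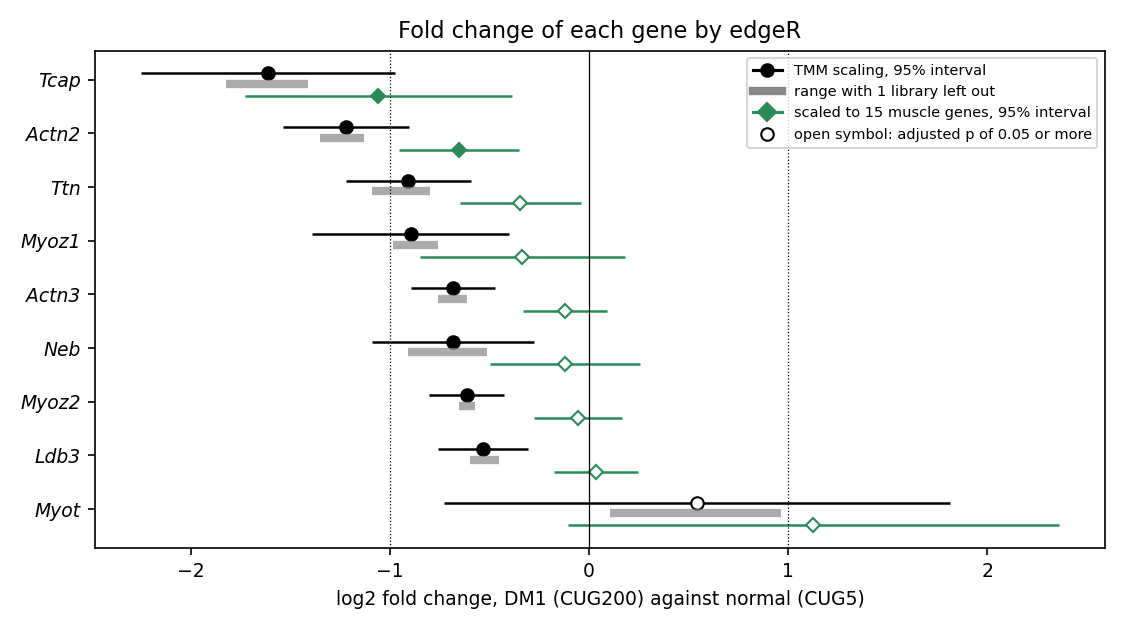
Log2 fold change of each gene in the DM1 against the normal group, with edgeR's 95% confidence interval under TMM scaling (black) and with libraries scaled to 15 muscle genes (green), and the range over fits that leave out 1 library (grey). Filled symbols mark an adjusted p under 0.05, and dotted lines mark log2 fold changes of -1 and 1, which only *Tcap* and *Actn2* pass under TMM.

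The fold changes of the members were next compared within each library, since a ratio of 2 genes of the same library does not depend on the library scaling. With 3 libraries against 3, the exact two-sided permutation test cannot give a p below 0.1. The log2 ratio of *Actn2* to *Actn3* counts was -4.24, -4.29 and -4.16 in the normal libraries and -4.75, -4.88 and -4.66 in the DM1 libraries, so the ratio decreased by 0.54 on the log2 scale and its libraries did not overlap (exact permutation p = 0.1, adjusted p = 0.2 over 4 ratios). The log2 ratio of *Myoz2* to *Myoz1* was 4.38, 4.32 and 4.21 against 4.80, 4.53 and 4.43, a difference of 0.28 without overlap (exact permutation p = 0.1, adjusted p = 0.2). It was 0.18 without DM1 replicate 1, and with 10 counts added in place of 1 it was 0.22 (exact permutation p = 0.2). The log2 ratio of *Tcap* to *Ttn* was lower in the DM1 group by 0.66 on average, but its libraries overlapped (exact permutation p = 0.2, adjusted p = 0.2). It ranged from -0.95 without DM1 replicate 1 to -0.43 without DM1 replicate 3. The log2 ratio of *Neb* to *Ttn* was higher by 0.21, also with overlap (exact permutation p = 0.2, adjusted p = 0.2), and by 0.43 in TPM. None of the 4 ratios passes a threshold of 0.05, which this exact test cannot reach with 3 libraries against 3.

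**Figure D3:**
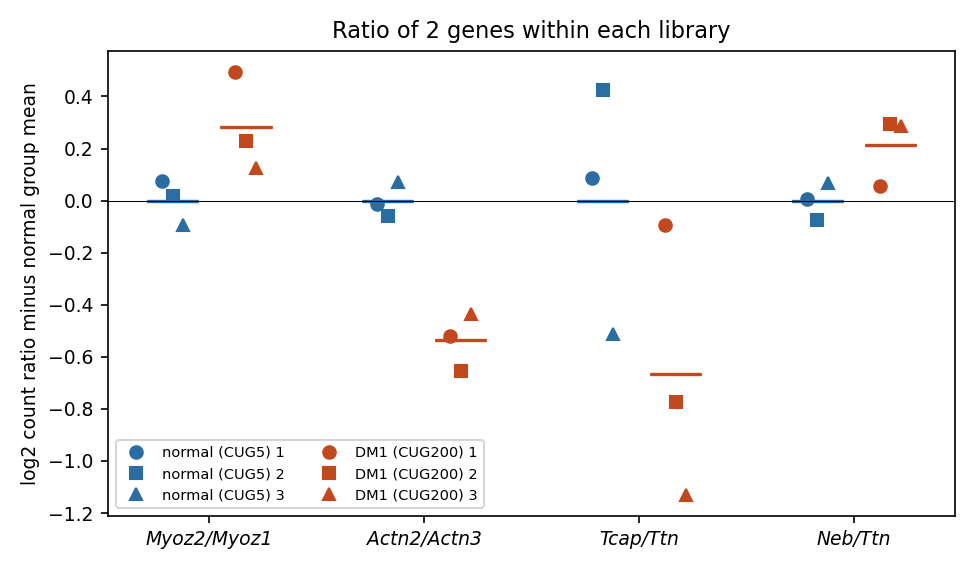
Log2 ratio of the counts of 2 genes within each library, minus the mean of the normal group, with 1 point per library (blue, normal, and orange, DM1) and bars at the group means. The 3 DM1 libraries lie apart from the 3 normal ones for *Myoz2*/*Myoz1* (above) and *Actn2*/*Actn3* (below), and the groups overlap for *Tcap*/*Ttn* and *Neb*/*Ttn*.

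Rescaling the libraries so that the 15 genes of differentiated muscle were level by their median, a choice made after the values had been seen, moved the median log2 fold change of all tested genes to 0.58. On this scale 0.768% of tested genes were called lower and 53.9% higher by edgeR, against 8.73% and 7.13% with TMM. *Tcap* and *Actn2* were still called lower, with log2 fold changes of -1.06 (adjusted p = 0.0145 by edgeR) and -0.65 (adjusted p = 0.00320). *Ttn* was at -0.35 (adjusted p = 0.0532) and *Myoz1* at -0.34 (adjusted p = 0.235). *Actn3*, *Neb* and *Myoz2* were at -0.12, -0.12 and -0.054 (adjusted p = 0.292, 0.557 and 0.656), and *Ldb3* changed sign to 0.033 (adjusted p = 0.780). *Myot* was at 1.13 (adjusted p = 0.108). Thus 2 of the 8 downregulated members were lower relative to the median of these muscle genes by this test, and the other 6 were not called. The 15 muscle genes themselves ranged under TMM from -1.32 (*Myh3*) to -0.16 (*Mylpf*). *Actn2*, at -1.22 under TMM, lay within that range, and *Tcap*, at -1.61, lay below it. The 95% interval of *Ttn* lay below 0 (-0.65 to -0.043), and those of the remaining 5 spanned 0, from -0.85 at the lowest (*Myoz1*) to 0.26 at the highest (*Neb*).

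Levels between genes are compared per length, by the deposited TPM, which divides by transcript length. In the normal group *Actn3* was the highest at 228 ± 13.6 TPM (SD, n = 3), followed by *Neb* at 165 ± 41.2, *Ldb3* at 98.7 ± 10.3 and *Ttn* at 98.1 ± 5.54. *Myoz2* followed at 68.6 ± 1.58 TPM, *Actn2* at 11.8 ± 1.16, *Tcap* at 5.81 ± 1.68, *Myoz1* at 4.30 ± 0.578 and *Myot* at 0.371 ± 0.253. The ranges of neighbors over the 3 libraries did not overlap, except those of *Ldb3* and *Ttn* and those of *Tcap* and *Myoz1*. In the DM1 group the order was *Actn3* (131 ± 25.4 TPM), *Neb* (97.3 ± 14.1), *Ldb3* (58.0 ± 8.64), *Ttn* (44.8 ± 12.4), *Myoz2* (42.1 ± 5.77), *Actn2* (4.71 ± 1.17), *Myoz1* (2.01 ± 0.394), *Tcap* (1.72 ± 0.322) and *Myot* (0.499 ± 0.157). There the ranges over the 3 libraries overlapped between *Actn3* and *Neb*, between *Ldb3* and *Ttn*, between *Ttn* and *Myoz2*, and between *Myoz1* and *Tcap*. *Actn3* had the highest mean per length in both groups, and *Actn2* stood below it in each library, at a TPM ratio of 0.0488 to 0.0544 in the normal and 0.0327 to 0.0381 in the DM1 group. The place of *Ttn* depended on the length used, and so did the order of *Myoz1* and *Tcap* in the DM1 group. With CPM per kilobase of the longest annotated transcript, a scale added after the values had been seen, the mean of *Ttn* was above that of *Ldb3*, at 41.5 ± 1.54 against 26.5 ± 1.98 in the normal group, without overlap, and at 22.1 ± 4.49 against 18.3 ± 1.70 in the DM1 group, with overlapping ranges (SD, n = 3 each). On that scale the DM1 mean of *Tcap* was above that of *Myoz1*, at 1.13 ± 0.280 against 0.938 ± 0.146 (SD, n = 3 each), with overlapping ranges.

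TPM rests on which transcripts the reads of a gene were assigned to, so the mean length of the assigned transcripts was computed from each library's counts and TPM. This measure was also added after the values had been seen. For *Tcap*, with a single annotated transcript of 948 bases, it returned 948 to 953 bases. For *Ldb3* it was 2278, 2321 and 2337 bases in the normal libraries and 2420, 2451 and 2632 bases in the DM1 libraries. The DM1 libraries were all longer, with means of 2312 ± 30.3 and 2501 ± 115 bases (SD, n = 3 each), a difference of 8.17% (exact permutation p = 0.1, the smallest that 3 against 3 can give). Among 10685 genes with more than 1 annotated transcript and over 100 counts in every library, 4.23% had groups that did not overlap with the DM1 group longer and 9.1% with the DM1 group shorter. *Myoz1* and *Myot* did not reach 100 counts in every library. Of the 8 members with more than 1 transcript, *Ldb3* was the 1 that was longer without overlap and *Actn3* the 1 that was shorter, by 3 bases of 2882.

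For *Neb* the mean length took long and short values in both groups, at 16115, 8634 and 9677 bases in the normal libraries and 8461, 8320 and 15403 bases in the DM1 libraries. Normal replicate 1, with the longest value, had the lowest *Neb* TPM of its group (117 against 184 and 192), although its CPM was the middle one. For *Ttn* it was 75697, 75572 and 76203 bases against 75452, 86165 and 84607 bases, with overlapping groups (exact permutation p = 0.4). The annotated protein-coding transcripts include 81843 and 106824 bases for *Ttn*, and 10298 and 22489 bases for *Neb*. The fold changes in CPM do not use these lengths.

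**Figure D4:**
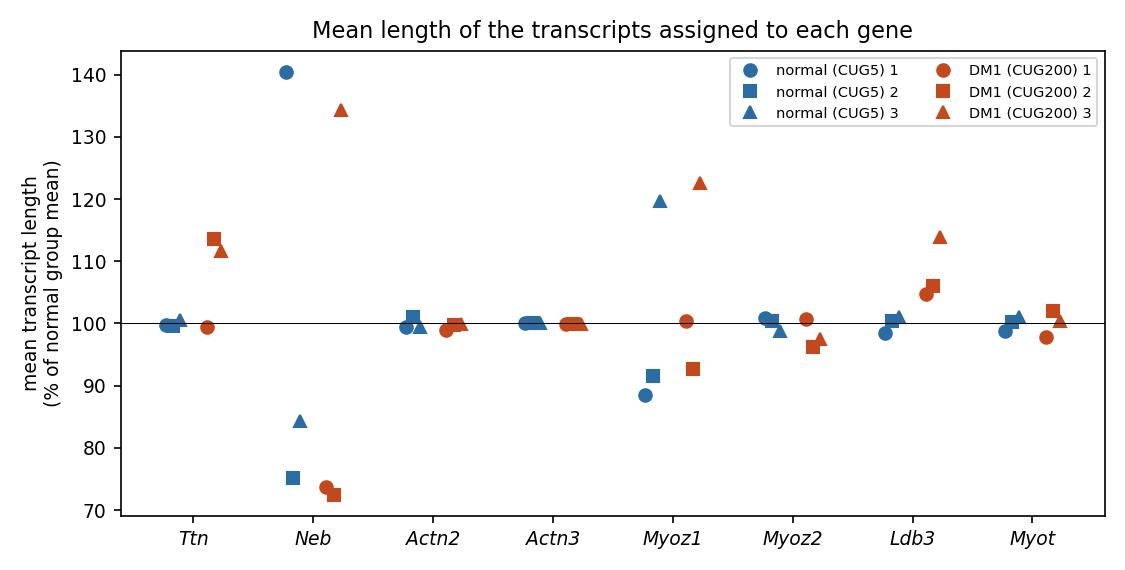
Mean length of the transcripts assigned to each gene, in percent of the normal group mean, with 1 point per library (blue, normal, and orange, DM1). All 3 *Ldb3* points of the DM1 group lie above the normal ones, and the *Neb* points split into long and short in both groups.

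Genes that overlap the members had few counts. *Ttn* shares 453 exonic bases with the antisense gene *Gm13938*, which had 0 counts in every library, and *Neb* shares 45 with the antisense gene *Gm13522*, which had at most 24 counts. The sources do not say whether the libraries kept strand. No gene that overlaps a member on the same strand passed the filter.

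A further set of lists describes the partners of the members, with levels as mean ± SD over the 3 libraries of each group and tests by edgeR. Genes that are named as not called were picked after their values were seen. Among 23 other scaffold genes of the Z-disc and I-band, 22 were tested, 11 were downregulated and 0 upregulated by edgeR (0 at an unadjusted p under 0.05, and 0 by DESeq2), with a median log2 fold change of -0.35. Over all tested genes 8.73% were called lower and 7.13% higher. The count of 11 was 6 or 7 without DM1 replicate 2 or any 1 of the normal libraries. *Igfn1*, which encodes a Z-disc protein of skeletal muscle, went from 118 ± 13.6 to 39.6 ± 9.52 CPM (log2 fold change -1.57, adjusted p = 0.00217). *Nrap*, a nebulin-related protein of assembling myofibrils, went from 48.0 ± 5.65 to 23.5 ± 4.89 CPM (-1.03, adjusted p = 0.00517), and *Pdlim3*, an α-actinin-binding PDZ and LIM protein, from 398 ± 14.6 to 262 ± 23.4 CPM (-0.60, adjusted p = 0.00517). In all, 3 genes of the list were past both cutoffs, *Igfn1*, *Nrap* and *Csrp3*, the last of which encodes muscle LIM protein and was not among those named by the rule. The 11 genes that were not called included *Flnc*, which encodes filamin C, at -0.27.

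Of 14 genes whose products bind titin or signal from it, 5 were downregulated and 0 upregulated (1 higher at an unadjusted p under 0.05, and 0 by DESeq2), with a median of -0.32. The shares over all tested genes were 8.73% lower and 7.13% higher. The 3 named by the rule were *Smyd1*, a methyltransferase needed for sarcomere assembly (125 ± 2.39 to 66.8 ± 4.06 CPM, log2 fold change -0.90, adjusted p = 0.00104 by edgeR), *Trim55*, the ubiquitin ligase MuRF2 (83.5 ± 0.635 to 51.3 ± 2.03 CPM, -0.70, adjusted p = 0.00168), and *Ankrd23*, a titin-binding ankyrin repeat protein (48.0 ± 3.51 to 27.7 ± 2.23 CPM, -0.79, adjusted p = 0.00270). *Ankrd23* shares exonic bases with *Gm42417* on the same strand, so its reads may be split between them. Its relatives *Ankrd1* and *Ankrd2* were not called, both at 0.31. *Ankrd1* was the 1 gene higher at an unadjusted p under 0.05 (835 ± 130 to 1031 ± 46.1 CPM, unadjusted p = 0.0325 by edgeR). Its groups did not overlap, while those of *Ankrd2* did.

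Of 12 thin filament partners of nebulin, 11 were tested, 5 were downregulated and 0 upregulated (1 higher at an unadjusted p under 0.05, and 0 by DESeq2), with a median of -0.52. Again, 8.73% of all tested genes were called lower and 7.13% higher. The count of 5 was 3 without normal replicate 1 or DM1 replicate 2. *Lmod3*, a leiomodin that nucleates actin, went from 128 ± 5.01 to 60.7 ± 2.18 CPM (-1.08, adjusted p = 5.38e-04), *Lmod2* from 80.4 ± 3.58 to 48.9 ± 0.549 CPM (-0.72, adjusted p = 0.00168), and *Tmod1*, which caps the pointed end of actin, from 85.4 ± 6.32 to 44.3 ± 7.77 CPM (-0.95, adjusted p = 0.00369). The genes of actin capping protein at the Z-disc end, *Capza1*, *Capza2* and *Capzb*, were not called, at 0.24, 0.16 and -0.20.

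The last list is that of the calcineurin pathway, to which the myozenins bind. Of its 13 genes, 2 were downregulated and 2 upregulated, where 8.73% and 7.13% of all tested genes were, with a median of -0.047. *Nfatc3* went from 77.6 ± 2.37 to 51.4 ± 1.41 CPM (-0.59, adjusted p = 0.00268 by edgeR) and *Rcan1*, an inhibitor of calcineurin, from 17.7 ± 0.941 to 12.1 ± 0.517 CPM (-0.55, adjusted p = 0.0115). *Nfatc4* went from 2.91 ± 0.125 to 6.42 ± 0.735 CPM (1.14, adjusted p = 0.00320) and *Nfatc1* from 8.06 ± 0.703 to 11.2 ± 0.667 CPM (0.48, adjusted p = 0.0327). The 2 upregulated genes became 1 when any library other than DM1 replicate 1 was left out, with library totals alone or with a replicate block, and 0 with limma-trend on TPM, and 1 of the 2 downregulated genes was lost without DM1 replicate 2. The genes of calcineurin itself, *Ppp3ca*, *Ppp3cb*, *Ppp3cc* and *Ppp3r1*, were not called, with log2 fold changes from -0.30 to -0.038.

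**Figure D5:**
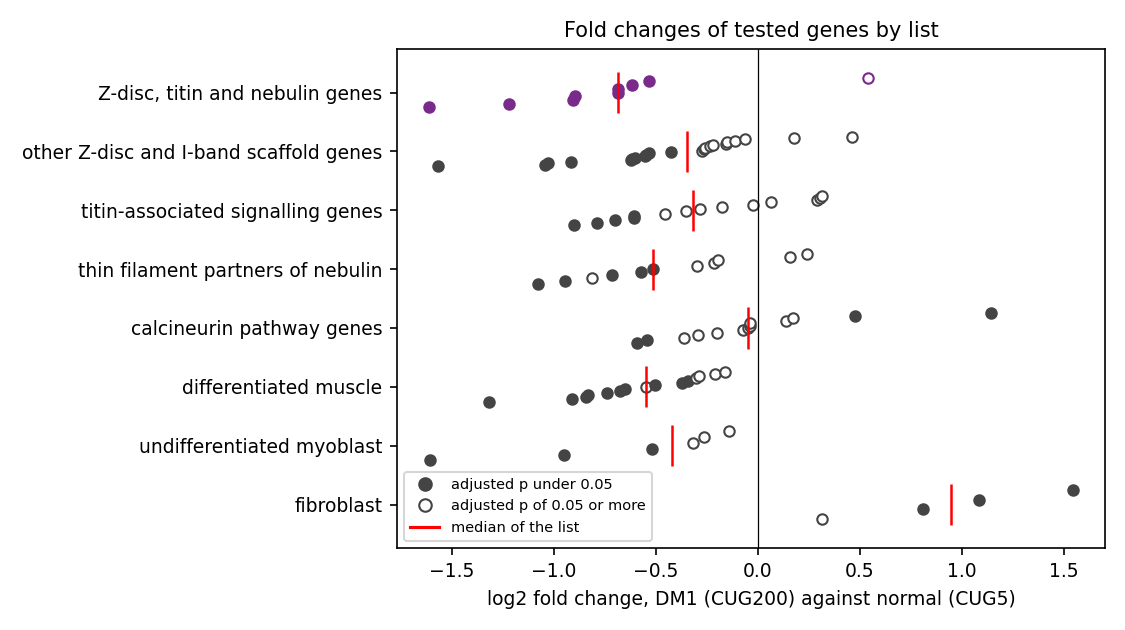
Log2 fold change (DM1 against normal, edgeR) of each tested gene of 8 lists, with filled points at an adjusted p under 0.05, the members in purple and a red line at each list's median. The members' median of -0.68 is the lowest of the 8 lists, and only the calcineurin and fibroblast lists hold genes called higher.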

How the data were processed

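Total RNA of 3 normal and 3 DM1 libraries was compared. The authors trimmed reads with Trim Galore, aligned them to GRCm38 with HISAT2 and quantified genes with StringTie, whose versions are not given in the sources used here. They deposited a table of gene counts and, per library, StringTie coverage, FPKM and TPM. In 99.069% of 6334 single-transcript genes, the deposited count was the deposited coverage signal times length over 75, within 1 count. The deposited FPKM values were not used, and the deposited TPM values served for levels per length and limma. Counts were tested over all genes with edgeR 4.0.16 (R 4.3.3) by its quasi-likelihood test with filterByExpr at a minimum count of 10, TMM and Benjamini-Hochberg adjustment, without covariates. DESeq2 1.42.0 and limma-trend 3.58.1 (log2 of TPM plus 1 or 0.1) were alternatives. Scripts were tested on simulated data. Of the 55421 genes, 55240 were found in GENCODE M21, which gave locations and transcripts. Between 9 and 14 gene IDs per library were listed more than once, and their TPM was summed. No 2 replicates held the same counts (chi-square per degree of freedom 39.8 to 148, overstated because a fragment gives about 4 counts). Ratios used counts plus 1. Named genes were all members and, per list, the 3 of smallest p in each direction among genes called without overlap. The members and lists were chosen with earlier results of these data known.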

Additional observations from a re-analysis of the deposited data

How the results depend on the processing

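The downregulation of 8 members was kept by DESeq2 (8), by the replicate block (8), with DESeq2's size factors, with other filters and with counts divided by 4, and it was 7 with limma-trend on TPM and 7 with library totals alone, *Neb* being lost in each. Against a log2 fold change of 1 (glmTreat, which called 1 gene lower and 3 higher in all), the downregulated genes were 0 among the members (0 past both cutoffs), 0 among the other scaffold genes, 0 among the titin-associated genes, 0 among the nebulin partners and 0 in the calcineurin list, which also had 0 upregulated genes. With limma-trend, the members past both cutoffs were 4 (TPM plus 0.1), the downregulated scaffold genes 7 (TPM plus 1) and the upregulated calcineurin genes 0 (both). The last were 1 with library totals alone and 1 with the replicate block. Leaving out 1 library gave 5 to 8 downregulated members, 2 to 3 past both cutoffs, 6 to 13 scaffold genes, 4 to 6 titin-associated genes, 3 to 6 nebulin partners, 1 to 2 lower and 1 to 2 higher calcineurin genes. On the muscle gene scale, which moved the median of all tested genes from 0.015 to 0.58, *Ldb3* went from -0.53 to 0.033, a shift that this scaling gives to all genes nearly alike. For the other changes the cause was not tested, except that fits without a library hold fewer samples.

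Libraries with the same replicate number deviated together with correlations of only 0.0675, 0.0222 and 0.0263, and DM1 replicate 2 correlated best with normal replicate 3 (0.0451), so the numbers were not taken to pair the libraries. With the replicate block the adjusted p of the 8 members lay between 0.00651 and 0.0374. In the 4 ratios the block allowed no p below 0.25, and no alternative changed the sign of a ratio. The members with the fewest counts were *Myot*, *Tcap* and *Myoz1*.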

Other observations

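Apart from the members, 12552 genes with over 100 counts in every library were compared with the mean of the members over the 6 libraries. The genes most like it were *Mid1ip1*, *Myh2*, *Myom2*, *2310043M15Rik* and *Nudt3* (Pearson r 0.999, 0.998, 0.998, 0.998 and 0.998, as a description over libraries that form 2 groups). They were picked for their likeness to members that differ between the groups. Their fold changes and adjusted p values therefore describe them and are no separate test. *Myh2*, a fast myosin heavy chain, went from 9.12 ± 2.15 to 2.69 ± 0.917 CPM in these groups of 3 (mean ± SD), and by edgeR its log2 fold change was -1.76 (adjusted p = 0.00603). *Myom2*, which encodes the M-band protein myomesin 2, went from 315 ± 25.3 to 210 ± 19.2 CPM (-0.59, adjusted p = 0.00780). *Mid1ip1* was at -0.56 and *Nudt3* at -0.29 (adjusted p = 0.0117 and 0.0401). Among the members, *Ldb3* followed the mean of the other 8 most closely (r = 0.995) and *Tcap* least among those called (r = 0.675). For *Myot* r was -0.43, but with 8 to 61 counts per library this does not show an opposite course.

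The α-actinins of non-muscle cells, *Actn1* and *Actn4*, which were picked out after their values were seen, were not called. *Actn1* was at 148 ± 5.46 CPM in the normal and 137 ± 20.4 CPM in the DM1 group (mean ± SD over 3 libraries), and edgeR put its log2 fold change at -0.11 (adjusted p = 0.549), and *Actn4* at 193 ± 5.95 and 164 ± 15.8 CPM (-0.23, adjusted p = 0.124). Whether they differ in their change from *Actn2* and *Actn3* was not tested.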
